A study of Caenorhabditis elegans with 2 samples.

Results

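The genes described here encode the 3 Aly adaptors of Caenorhabditis elegans and 7 of their partners in mRNA export: aly-1, aly-2, aly-3, hel-1, nxf-1, nxf-2, thoc-1, thoc-2, ncbp-1 and ncbp-2. They were chosen by name, and all 10 were found by symbol among the 19985 protein-coding genes of the WBcel235 annotation (Ensembl release 115). The data are chromatin immunoprecipitation and sequencing (ChIP-seq) of ALY-2 in whole L3 larvae of both sexes, so all tissues were mixed. The strain was OP217, with the genotype unc-119(ed3) III; ddIs172, and every larva carried an integrated transgene that tags aly-2 with eGFP. The single group held 2 biological replicates. No control samples were analysed here, and the sources used here give neither the promoter of the transgene nor its copy number.

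In metazoans, newly made mRNA is packaged for export while it is still being transcribed and processed. The cap-binding complex sits at the 5′ end of the transcript, the THO complex and the helicase UAP56 join it to form TREX, and UAP56 loads Aly/REF adaptors. The adaptors then hand the mRNA to the NXF1 receptor, which carries it through the nuclear pore. Among the members, ncbp-1 and ncbp-2 encode the cap-binding proteins, thoc-1 and thoc-2 encode THO subunits, hel-1 encodes the UAP56 helicase, and nxf-1 and nxf-2 encode NXF-family export receptors. The lists were read for regions at the genes of this pathway, to which ALY-2 itself belongs, and for their place along each gene.

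None of the 10 genes had a peak of the authors' optimal list with its summit in the gene or within 500 bp of it, where 2.38% of all protein-coding genes had one. The optimal list holds the 368 pooled regions that the authors kept at their threshold of irreproducible discovery rate (IDR). In the relaxed lists, which were deposited as input to that test and hold background regions as well as peaks, the members were listed often. A pooled region lay at 9 of the 10 genes, against 46.1% of all protein-coding genes, and thoc-1 had none. At 7 genes a pooled summit was overlapped by regions of both replicates, against 25.5% of all protein-coding genes. The members were picked with results of these data known, so these counts are a description and were given no test.

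Longer genes collect more regions. Of all protein-coding genes under 2 kb, 32.6% had a pooled region, of those from 2 to 4 kb 48.9%, and of those over 4 kb 73%. The median length was 1894 bp for the members and 2026 bp for all protein-coding genes. The height of each region is the authors' own signal value, of unstated scaling, and no read counts were used, so depth is unknown. Heights were therefore used only within a list, as a rank or as a percentile, the percentage of regions in that list with a lower height. The highest pooled region of the 9 genes had a median height of 21.7 and a median percentile of 73.4, against 20.3 and 66.1 for all 9221 protein-coding genes with a region.

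Sequence is shown for 3 places outside annotated genes, at the members with the 3 highest pooled regions. All are from the RefSeq copy of WBcel235, the same assembly as ce11, written 5′ to 3′ on the strand of the member gene. Capitals mark the word AATAAA, the usual polyadenylation signal, or its reverse complement TTTATT. The window beyond the 3′ end of aly-2 (chrIV:9148680-9148780, plus strand) is centred on the summit of its highest pooled region. The window upstream of nxf-1 (chrV:14415234-14415334, minus strand) is centred on the summit of the highest pooled region there. The gap between the facing 3′ ends of thoc-2 and rps-13 (chrIII:6373905-6374096, plus strand) holds the summit of the highest replicate 1 region of all members.
aly-2 beyond the 3′ end: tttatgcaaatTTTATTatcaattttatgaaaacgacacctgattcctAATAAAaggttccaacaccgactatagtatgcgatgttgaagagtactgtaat
nxf-1 upstream: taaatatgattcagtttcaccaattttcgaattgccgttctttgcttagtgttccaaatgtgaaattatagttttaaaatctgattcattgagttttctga
thoc-2 and rps-13 gap: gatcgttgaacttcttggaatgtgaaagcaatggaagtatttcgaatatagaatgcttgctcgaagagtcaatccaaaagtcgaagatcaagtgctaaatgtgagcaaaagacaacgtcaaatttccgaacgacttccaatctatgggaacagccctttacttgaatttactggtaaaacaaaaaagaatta

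The 3 Aly genes differed widely from each other. All lie on the plus strand of chromosome IV. At aly-2 (9147468 to 9148579), the gene that is tagged, the highest pooled region had a height of 39.6 and a percentile of 96.9, with its summit 151 bp beyond the annotated 3′ end. The highest region at the gene was also beyond the 3′ end in each replicate, with a height of 19.1 in replicate 1 (summit 238 bp beyond the end, rank 916 of 30000) and 22.7 in replicate 2 (129 bp, rank 681 of 26751). The percentiles of 96.9 in replicate 1 and 97.5 in replicate 2 were the closest pair of any member.

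aly-2 was the only member whose highest region stood in the top 5% of both replicate lists, where 3.36% of all protein-coding genes did so. That threshold was chosen after the values were seen. No region had its summit inside aly-2 or within 500 bp upstream of it in any list. A second pooled region of height 17.8 overlapped the first and had its summit 374 bp beyond the end, in an exon of the pseudogene WBGene00043283. Both pooled summits lay within 500 bp of that pseudogene. Reads from the native aly-2 locus and from the transgene cannot be told apart by sequence.

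At aly-1 (9108931 to 9109753) the single pooled region was near the bottom of the list, with a height of 14.3 and a percentile of 2.77. Its summit lay in a coding exon 83 bp inside the gene. Replicate 1 had a region at the same place with a height of 12.95 and a percentile of 83.0. Replicate 2 had none there, and its only region at the gene lay 459 bp upstream with a height of 7.85 and a percentile of 26.5. The 2 replicates thus placed aly-1 far apart in their lists, and no pooled summit at this gene was found in both.

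At aly-3 (12123282 to 12124809) both replicates had their highest region beyond the 3′ end. The summits lay 102 bp past it in replicate 1, with a height of 15.1 and a percentile of 91.2, and 168 bp past it in replicate 2, with a height of 14.1 and a percentile of 86.2. The 2 overlapping pooled regions were lower in their list, with heights of 20.6 and 17.8 and percentiles of 67.6 and 47.5. The summit of the higher one was in the 3′ UTR of aly-3, and that of the other was in a coding exon of the downstream gene dhhc-6 on the same strand, 168 bp past aly-3. Each replicate also had a region upstream of aly-3, and the pooled list had none there. In replicate 1 it had a height of 10.7 and a percentile of 66.7 (323 bp upstream). In replicate 2 it had a height of 6.87 and a percentile of 5.27 (462 bp upstream), with its summit in the 3′ UTR of M18.6. Both summits lay within 500 bp of M18.6 and 21ur-13274.

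**Figure D1:**
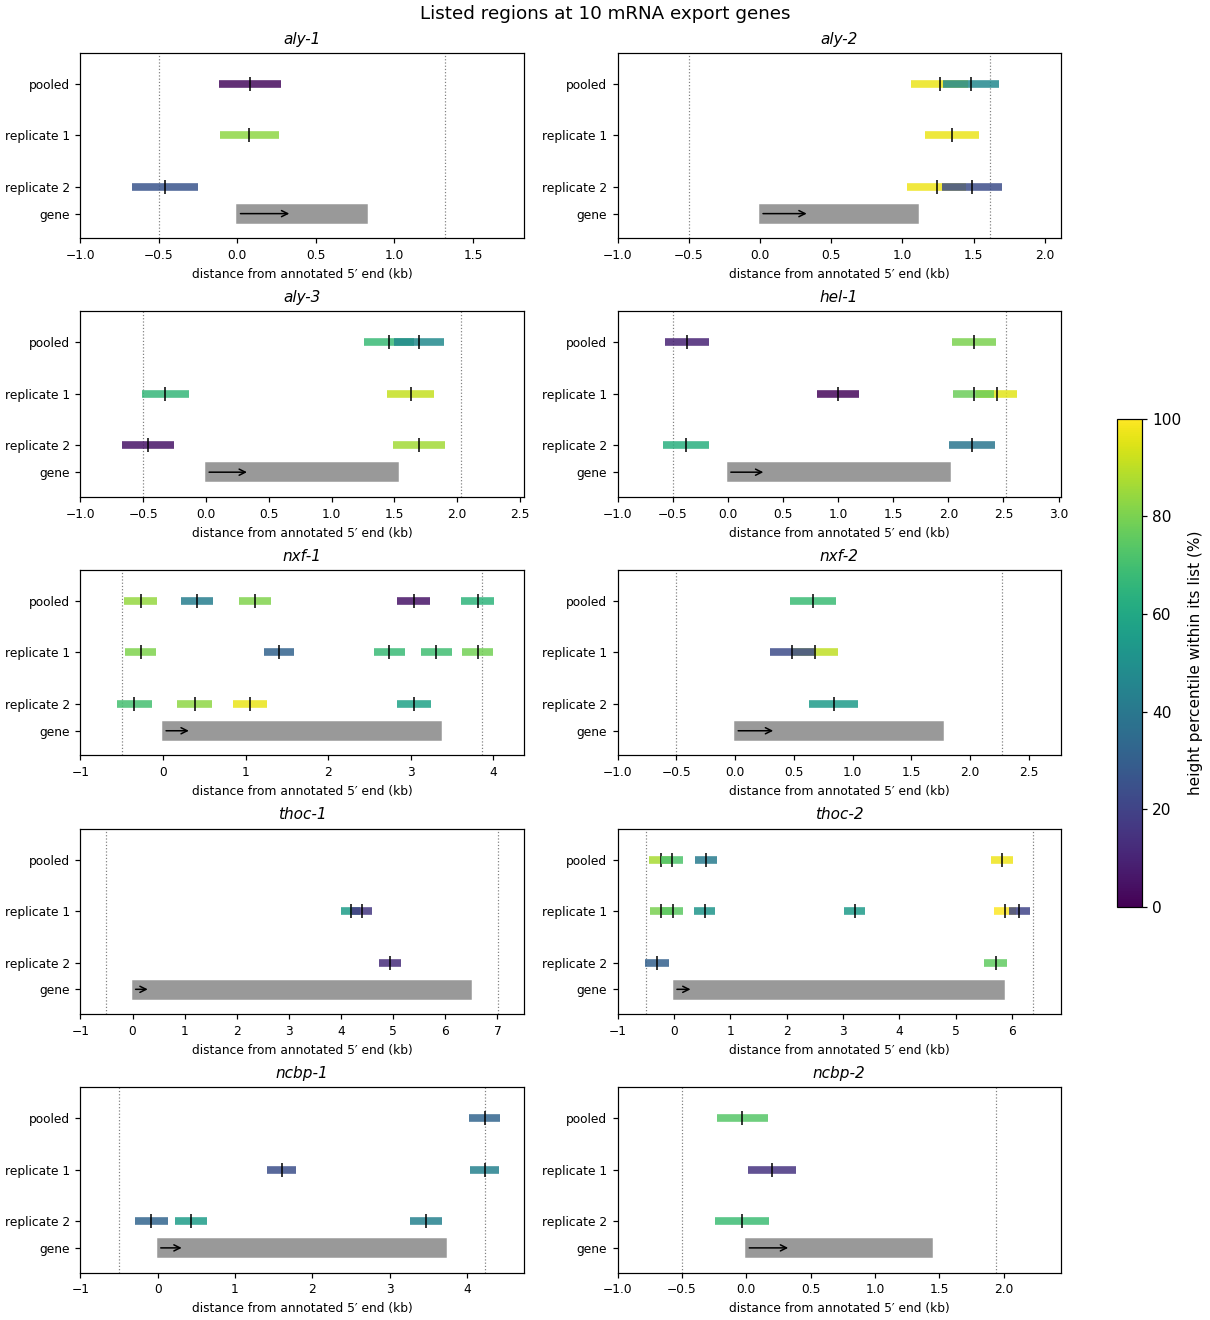
Regions of the pooled and replicate lists at each member, drawn along the gene from its 5′ end (x axis, kb; grey bar, gene; arrow, direction of transcription; dotted lines, 500 bp limits). Bars are regions coloured by height percentile within their list and ticks are summits; at aly-2, aly-3 and thoc-2 the highest regions of all 3 lists lie at the 3′ end, while thoc-1 has no pooled region.

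The helicase gene hel-1 (chromosome II, 8326852 to 8328870, minus strand) lies wholly inside the span of C26D10.3, a protein-coding gene on the opposite strand. Its higher pooled region had a height of 23.5 and a percentile of 80.1, with the summit 214 bp beyond the 3′ end of hel-1 in a coding exon of C26D10.3. Regions of replicate 1 (height 12.1, percentile 77.5) and of replicate 2 (height 8.57, percentile 39.3) overlapped that summit. The highest region at the gene in replicate 1 had a height of 17.6 and a percentile of 95.7 and lay further out, 420 bp beyond the 3′ end. In replicate 2 the highest was instead on the upstream side, 376 bp before the 5′ end in an intron of C26D10.3, with a height of 10.4 and a percentile of 62.9. The lower pooled region, with its summit 372 bp before the 5′ end, was found in replicate 2 alone. It was low in the pooled list, with a height of 14.8 and a percentile of 9.47. The only summit inside hel-1 itself was in replicate 1, in an exon, with a height of 6.86 near the bottom of that list (rank 29401 of 30000). The strongest listed region of hel-1 was therefore at opposite ends in the 2 replicates, and none of these summits can be assigned to hel-1 rather than C26D10.3, since ChIP-seq regions carry no strand.

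The export receptor gene nxf-1 (chromosome V, 14411649 to 14415014, minus strand) had 5 pooled regions, more than any other member. Of all protein-coding genes, without regard to length, 2.39% had as many or more. The highest lay upstream, with a height of 24.9, a percentile of 84.0 and its summit 270 bp before the 5′ end, in sequence between genes. It was the only one of the 5 that regions of both replicates overlapped, with heights of 12.5 in replicate 1 (percentile 80.6) and 11.2 in replicate 2 (percentile 70.0). C15H11.11 on the opposite strand starts within 500 bp of this summit.

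The next pooled region, of height 23.9, lay in an intron 1115 bp into nxf-1. In replicate 2 this region had a height of 21.4 and rank 839 of 26751, the highest at the gene in that list. No replicate 1 region overlapped its summit, and the nearest one in replicate 1 had a height of 8.21 and a percentile of 31.4, with its summit 1404 bp into the gene. The other 3 pooled regions had heights of 17.3 in a coding exon near the 5′ end, 14.5 in the overlapping 3′ UTRs of nxf-1 and gnrr-2, and 20.1 in an intron of gnrr-2, 445 bp past nxf-1. Each of these 3 was found in 1 replicate.

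The paralogous receptor gene nxf-2 (14416067 to 14417835, minus strand) lies 1052 bp upstream of nxf-1. It had 1 pooled region, of height 20.7 and percentile 68.2, with its summit in a coding exon 664 bp into the gene. Both replicates had regions over that summit, with heights of 14.9 in replicate 1 and 9.65 in replicate 2 and percentiles of 90.4 and 54.4. No list had a summit at the 3′ end of nxf-2, and it was the only member whose highest region was in the gene body in the pooled list and in both replicates.

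The 2 THO subunit genes, both over 4 kb long, stood at opposite ends of the set. At thoc-2 (chromosome III, 6368042 to 6373904, plus strand), which encodes the large scaffold subunit of THO, the highest pooled region had a height of 42.3, rank 430 of 17335 and a percentile of 97.5. This was the member nearest to the authors' optimal list, whose lowest peak had a height of 43.6, and 61 pooled regions stood between them. Its deposited −log10 q of 2.97 was the highest value in the list, one that 470 pooled regions share. The summit lay in the 3′ UTR of thoc-2, 40 bp before the annotated end.

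The replicates differed in how high they placed it. In replicate 1 the region had a height of 30.9 and rank 111 of 30000, with its summit 14 bp beyond the end, in the gap shown above. In replicate 2 the region had a height of 11.997 and rank 6481 of 26751, with its summit 153 bp before the end. The 3′ end of thoc-2 faces that of rps-13, which encodes a small-subunit ribosomal protein, across a gap of 192 bp. The pooled summit is within 500 bp of both genes, so the region cannot be given to thoc-2 alone.

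At the other end of thoc-2 lay 2 overlapping pooled regions, of heights 26.3 and 21.5, with summits 237 and 31 bp before the 5′ end. The first summit was in a coding exon of C56G2.15, the neighbour on the opposite strand, and was found in replicate 1 (height 12.4, percentile 80.0) and replicate 2 (height 8.06, percentile 30.6). The second was found in replicate 1 alone (height 11.7). A further pooled region, of height 17.2, lay in a coding exon 564 bp into the gene and was also found in replicate 1 alone. thoc-2 had 4 pooled regions, and 4.07% of all protein-coding genes had as many or more. That share is over genes of every length, and longer genes such as thoc-2 collect more regions.

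thoc-1 (chromosome II, 702107 to 708608, plus strand), at 6502 bp the longest member, had no pooled region at all, and 27.0% of protein-coding genes over 4 kb likewise had none. The nearest pooled summit was 1937 bp outside the gene and had a height of 15.4. Replicate 1 listed 2 overlapping regions in the body of the gene, with heights of 9.71 and 7.47 and percentiles of 54.9 and 16.3. Replicate 2 listed 1 region, with a height of 7.17 and a percentile of 12.4, centred on another part of the body, 4941 bp from the 5′ end against 4183 and 4403 bp in replicate 1. The locus was the least unique of the 10, with 91.1% of its 36-base words occurring once in the genome, and the part this plays in the listing was not tested.

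The cap-binding genes had no region above a percentile of 73.4 in any list. At ncbp-2 (chromosome I, 7641885 to 7643328, minus strand), the small cap-binding subunit, the pooled region had a height of 21.7 and a percentile of 73.4, with its summit 29 bp before the 5′ end and within 500 bp of the 3′ end of rrf-1, which encodes an RNA-dependent RNA polymerase. Replicate 2 had a region at the same place, 30 bp before the 5′ end, with a height of 11.03 and a percentile of 68.6. Replicate 1 had none over that summit, and its region 200 bp inside the gene had a height of 7.41 and a percentile of 14.9.

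At ncbp-1 (chromosome I, 6422061 to 6425794, plus strand), the large cap-binding subunit, the single pooled region had a height of 16.4 and a percentile of 32.2. Its summit was 498 bp past the 3′ end, in an intron of lron-6 on the opposite strand, and only just within the 500 bp limit. Regions of replicate 1 (height 8.88, percentile 43.4) and replicate 2 (height 9.12, percentile 47.4) overlapped that summit, at middling ranks in both. The highest region at the gene in replicate 2 lay elsewhere, 435 bp inside the 5′ end, with a height of 9.74 and a percentile of 55.4.

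**Figure D2:**
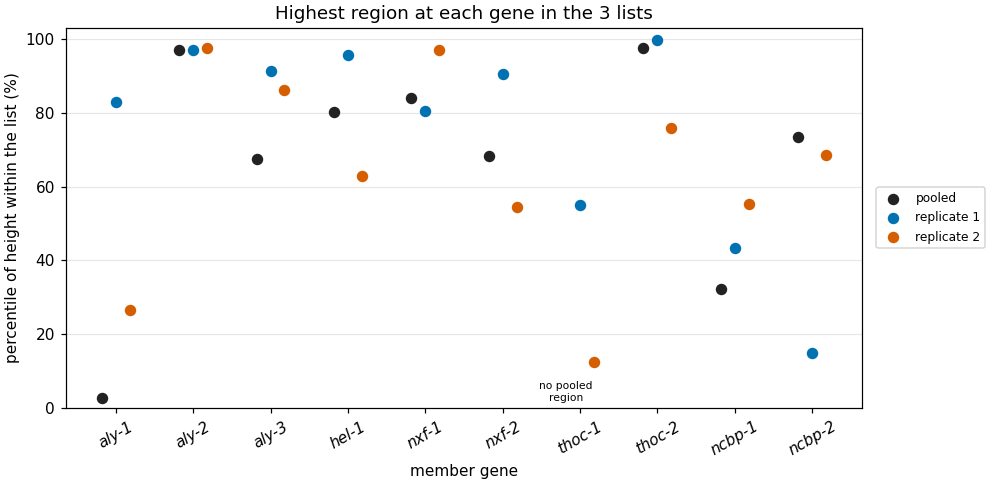
Percentile of height of the highest region at each member (x axis, genes; y axis, percentage of the list with a lower height) in the pooled list and in the 2 replicate lists. The highest region can be a different site in each list. The 3 points of aly-2 lie between 96.9 and 97.5, while the replicate points of aly-1 stand at 83.0 and 26.5 and those of ncbp-2 at 14.9 and 68.6.

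Between replicates, the percentile of the highest region differed by 0.508 points at aly-2, 5.05 at aly-3, 12.02 at ncbp-1, 16.3 at nxf-1, 23.9 at thoc-2 and 32.8 at hel-1. The differences at nxf-2, thoc-1, ncbp-2 and aly-1 were 36.02, 42.5, 53.7 and 56.5 points. These are not always differences at 1 site. At nxf-1, hel-1, ncbp-1, aly-1, thoc-1 and ncbp-2, the highest region of neither replicate covered the summit of the other. At the pooled summit of ncbp-1 the percentiles were 43.4 in replicate 1 and 47.4 in replicate 2. Replicate 1 placed 6 of the 10 genes higher, and replicate 2 placed aly-2, nxf-1, ncbp-1 and ncbp-2 higher. With 2 replicates and no control samples analysed here, no test of any single gene was run.

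**Figure D3:**
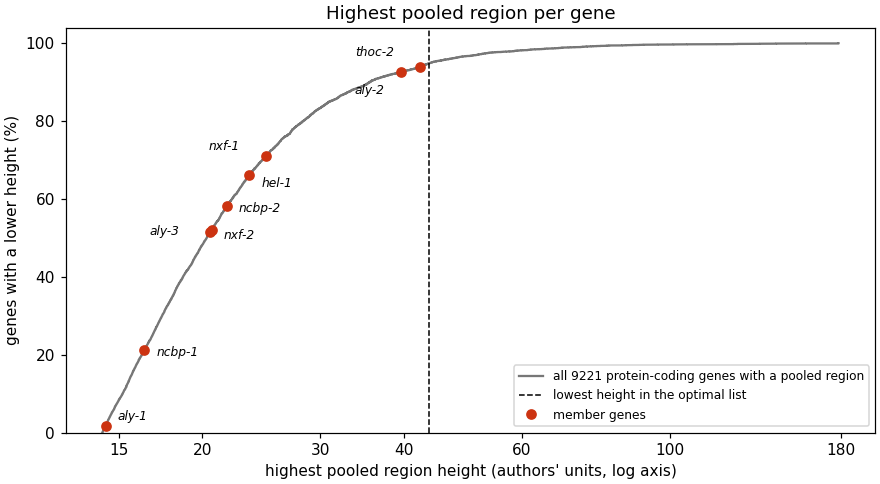
Cumulative curve of the highest pooled height per gene (x axis, authors' units on a log axis; y axis, percentage of genes with a lower height) for the 9221 protein-coding genes with a pooled region, with the 9 members as points. thoc-2 (42.3) and aly-2 (39.6) lie close below the dashed line at 43.6, the lowest height of the optimal list, and the other 7 lie at 24.9 or lower.

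Set against other genes rather than other regions, the highest pooled height of thoc-2 was above that of 93.9% of the protein-coding genes with a region, and that of aly-2 above 92.6%. The corresponding values were 71.1% for nxf-1, 66.2% for hel-1, 58.1% for ncbp-2, 52.1% for nxf-2, 51.5% for aly-3, 21.3% for ncbp-1 and 1.74% for aly-1. Outside the top pair the members ran from the lowest heights to 71.1% of genes, and none stood above that. In distance, the optimal peak nearest to any member was that 44084 bp from nxf-1, and the peak nearest to aly-2 was 63870 bp away.

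By place, the highest pooled region lay at the 3′ end of 5 members (aly-2, aly-3, hel-1, thoc-2 and ncbp-1), at the 5′ end of 3 (aly-1, nxf-1 and ncbp-2) and in the body of nxf-2. Among all protein-coding genes with a pooled region the highest lay at the 3′ end of 43.2% and at the 5′ end of 30.3%, and nothing was read from the count of 5 in 9 beyond this. Of all 19 pooled regions at members, a 3′ end was the place of 9, a 5′ end of 7 and the body of 3. The 500 bp rule leaves no body in a gene as short as aly-1 (823 bp) and little in aly-2 (1112 bp). Regions of both replicates overlapped the summit of 9 of the 19 (47.4%), against 40.5% of all pooled regions. Some of the 19 overlap each other, so they are not separate sites.

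Over windows of 50 bp on either side of each of the 19 summits, there was a median G and C content of 30.7% (range 19.8 to 48.5%), against 31.7% over all pooled summits. AATAAA on either strand was in 9 of the 19 windows, and in 26.4% of all 17335 pooled windows. At 3′ ends it was in 7 of 9 member windows, against 31.8% of the 3193 pooled windows at a protein-coding 3′ end and no 5′ end. The comparison is not like for like, since the member windows were not filtered for nearness to a 5′ end. Those of aly-3 lie within 500 bp of the 5′ end of dhhc-6. In addition, aly-2, aly-3 and nxf-1 each gave more than a single window, so the 9 are not separate genes. A match in the orientation of the gene occurred past the 3′ ends of aly-2 (149 and 365 bp, in the first and second window), nxf-1 (454 bp) and ncbp-1 (468 bp). In the thoc-2 window the word was on the opposite strand, 29 bp before the end. GCGCGC was in none of the 19 windows, against 1.11% of all pooled windows. GAGAGA was in 1 window, that of ncbp-1, against 6.62%.

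Since aly-2 is the tagged gene, the regions around it were counted. Within 20 kb of its middle lay 16 pooled regions, more than at 97.2% of protein-coding genes, whose median was 6. Their median height of 24.7 was above that of 97.1% of genes. The median height was above that of 90.3% of genes in replicate 1 and 82.3% in replicate 2. In the pooled list it was above that of 89.8% within 10 kb and 87.2% within 40 kb. The number of regions within 20 kb was 27 in replicate 1 and 18 in replicate 2, above 99.7% and 91.3% of genes. The pooled regions were not even on the 2 sides, with 10 upstream (median height 27.5, 8 of them in the top 25% of the list) and 6 downstream (18.9, 1 in the top 25%). In replicate 1 there were 15 upstream (median height 11.8, 8 in the top 25%) and 12 downstream (10.7, 5 in the top 25%). In replicate 2 both sides had 9 regions and 4 in the top 25%, with median heights of 11.2 upstream and 8.46 downstream.

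The neighbourhoods of the other members ran from crowded to sparse. thoc-2 had 21 pooled regions within 20 kb, more than 99.6% of genes, and ncbp-2 had 14 (94.4%). ncbp-1 had 11 (84.3%), nxf-1 and nxf-2 had 10 each (78.6%), and aly-3 and hel-1 had 8 each (62.5%). At thoc-1 there were only 3 (13.3%). aly-1, whose end is 37714 bp from the start of aly-2, had 15 (96.1%), with a median height of 18.5. Among the higher pooled regions upstream of aly-2 were those 25.5 kb from its middle in an intron of nrfl-1 (height 43.0), 18.1 kb away in an exon of nrfl-1 (36.5) and 3.10 kb away in introns of daf-10 and the neuropeptide gene flp-1 (29.2). The sources used here do not give the extent of the transgene, so its share in these counts cannot be told apart from that of the native chromosome.

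**Figure D4:**
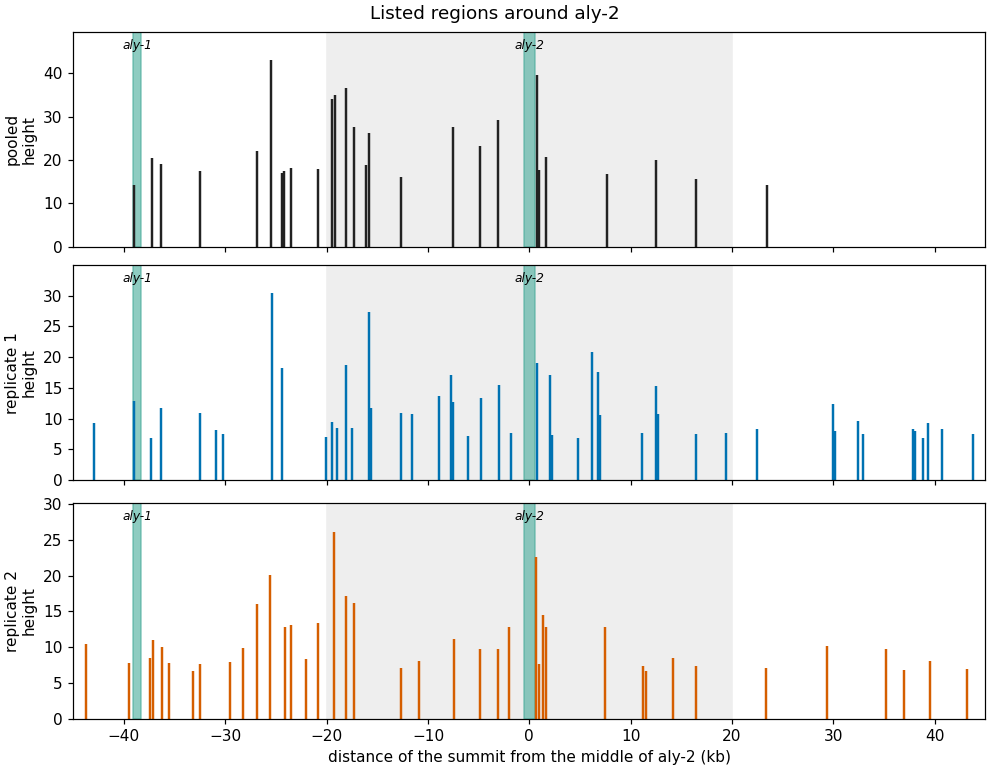
Heights of all listed regions (y axis, authors' units) by distance of the summit from the middle of aly-2 (x axis, kb; positive values lie in the direction of aly-2 transcription) in the pooled list and in the 2 replicate lists. Shading marks the 20 kb on each side; the pooled list has 10 regions upstream and 6 downstream, and the region beyond the 3′ end of aly-2 is listed in all 3.

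Of 19 further export genes 14 were found in the annotation by symbol. None of these 14 had an optimal peak, against 2.38% of all protein-coding genes with one. A pooled region lay at 11 of them, against 46.1% of all protein-coding genes. At 7 both replicates had regions over a pooled summit, against 25.5%. These shares were not matched for gene length. The median of the highest heights at the 11 genes was 27.7, against 20.3 for all protein-coding genes with a region. The highest was at ran-1, which encodes the Ran GTPase, with a height of 39.0 and rank 570 at its 3′ end; its highest regions in replicates 1 and 2 stood at percentiles of 96.1 and 98.0. At nxt-1, which encodes the NXT partner of NXF receptors, the height was 35.1, at the 5′ end, and at dss-1, a small protein of the TREX-2 complex in other species, it was 32.4, also at the 5′ end. ddx-19, thoc-3 and rnp-4 had no pooled region.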

How the data were processed

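ChIP-seq region lists of 2 biological replicates, numbered as in the labels, were analysed on ce11. Fragments of 150 to 350 bp were used, per the labels. The authors deposited a relaxed list per replicate (30000 and 26751 regions for replicates 1 and 2), a pooled list (17335) and the optimal list (368). The pooled list was made from both replicates' alignments and a further file of unstated role, per the deposited file records. For the aligner, the peak caller and the antibody, the sources used here give no name. The deposited signal value of each region is called its height, and the deposited −log10 q was only described, since many regions share its highest value. The ce10 lists were not used, since no ce10 annotation was at hand.

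A region belonged to a gene when its summit lay in the gene or within 500 bp. Its place was the nearer end when the summit was within 500 bp of one, otherwise the body. A pooled region counted as found in a replicate where a region of that list covered its summit. Gene ends came from Ensembl release 115, and all regions lay within the RefSeq chromosome lengths. Counting was tested on simulated data. Python 3.11.15, pandas 2.3.3 and numpy 2.4.6 were used. No p-values were computed. The members, the lists of further genes and the words were chosen with earlier results of these data known. All members were named, with the 3 highest further genes; ddx-19, thoc-3, rnp-4 and the neighbours of aly-2 were named after their values were seen. Alternatives changed the window, the overlap rule, the list, the replicates, the end distance, the neighbourhood and the length of words tested for single copies.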

Additional observations from a re-analysis of the deposited data

How the results depend on the processing

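With the highest 25% of the pooled list, 4 members had a region, against 18.5% of all protein-coding genes, and with the highest 25% of each list 2, aly-2 and thoc-2, had one found in both replicates, against 8.07%. Without replicate 1 or replicate 2, a region lay at 10 members in either list, but these lists are longer and had a region at 58.1% and 63.4% of all protein-coding genes. In place of the optimal list, the 368 highest regions of the other replicate held 0 to 1 members (2.20% and 2.15% of all genes without replicate 1 and without replicate 2); the 1 was thoc-2, in replicate 1. The median percentile of the highest regions was 65.8 without replicate 1 and 86.7 without replicate 2. These medians are over all 10 members, thoc-1 included, while the pooled median of 73.4 is over 9. They also come from longer lists, and no median over all genes is given for those lists. They therefore do not show how the members stand against other genes. The crowding around aly-2 was above 88.8% of genes within 10 kb. The cause of these shifts was not tested. The other counts of members were within 1.5 times under the windows of 250 and 1000 bp and under any overlap. The lowest single-copy share was 94.2% with 50-base words. For single members, all 26 percentiles under other windows or overlap moved by no more than 1 SD of the 2 replicates. ncbp-1 had no pooled region with the 250 bp window, so it gave no value there. That SD is wide where the replicates differ. nxf-2 counted as unmoved although it went from 68.2 to 84.0 with the 1000 bp window, which took in the region upstream of nxf-1. Without a replicate, 9 of 18 moved by more, although that SD comes from the same replicates. Without replicate 2, aly-1 stood at 83.0, against 2.77 in the pooled list, and ncbp-2 at 14.9, against 73.4. The replicate 1 region of ncbp-2 did not cover the pooled summit, so unlike sites were compared there. In the highest 10% of both replicate lists, an alternative chosen after seeing the data, 1 member stood. No paired analysis was possible because there is 1 group. Depth is unknown, and the relaxed lists hold background, so a listed region is not by itself a binding site.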
